A study of Mus musculus with 4 samples.

Results

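The comparison described here is the interaction of tumour model and CD4 depletion in lung CD8+ T cells, that is, the depletion ratio in the IPF-LC model minus the depletion ratio in the LC model, gene by gene. It took in all 4 libraries of the series and the 8433 of 55401 genes whose mean level was at least 10 CPM (counts-per-million reads, scaled between libraries by TMM). Within these, attention was given to genes whose ratios lay in opposite directions in the 2 models: 24 were at least 2-fold higher with depletion in IPF-LC and at least 2-fold lower in LC, and 7 were the reverse. All mice were C57BL/6J, and the labels name the models only as IPF-LC and LC, although the series title speaks of lung fibrosis. The 4 groups were IPF-LC with an isotype antibody, IPF-LC with an anti-CD4-depleting antibody, LC with the isotype antibody and LC with the depleting antibody. Cells had been sorted from lung as CD3+CD8+. Age, antibody schedule, time of sampling and the number of mice behind a library are not given in the sources used here. With 1 library per group the model with an interaction leaves 0 residual degrees of freedom, so no test was possible and no difference could be set against a spread between mice. Every ratio below describes these 4 libraries.

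CD8+ T cells kill tumour cells through granzymes and perforin and through Fas ligand, and secrete interferon gamma and chemokines. Under lasting antigen they gain inhibitory receptors such as PD-1 and LAG-3, together with CD39 and the costimulatory receptor 4-1BB, which are also read as marks of recent antigen contact. CD4+ helper cells sustain CD8+ T cells through cytokines and dendritic cells, whereas regulatory T cells, most of which carry CD4, restrain them, so an antibody to CD4 removes cells of both kinds.

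The libraries held between 14946569 and 16217672 counts and between 14657 and 16415 genes with a count, and mitochondrial genes took 1.39 to 1.82% of the counts. Cd8a lay between 353 and 518 CPM and Cd8b1 between 654 and 972 CPM, and the other defining T cell genes Cd3d, Cd3e and Cd3g were present in every library. Cd4 was low, with a mean of 1.62 CPM and 73 counts in isotype IPF-LC, 0 in depleted IPF-LC, 12 in isotype LC and 16 in depleted LC; since the cells had been sorted for CD8, it does not check the depletion. Markers of other cells differed between the libraries. The summed level of 22 macrophage and monocyte genes was 4385 CPM in isotype IPF-LC, 1616 in depleted IPF-LC, 4792 in isotype LC and 66.1 in depleted LC, where 10 of the 22, Adgre1 among them, were at 0. Csf1r stood at 0.128 CPM and Lyz2 at 33.4 CPM in that library. Sums of neutrophil genes (111, 31.1, 267 and 9.57 CPM), fibroblast genes (251, 56.2, 388 and 18.6 CPM) and natural killer cell genes (186, 139, 344 and 58.1 CPM) followed the same order of libraries, with the lowest value in depleted LC. In a bulk library, fewer cells of a type and less RNA per cell cannot be told apart.

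**Figure D1:**
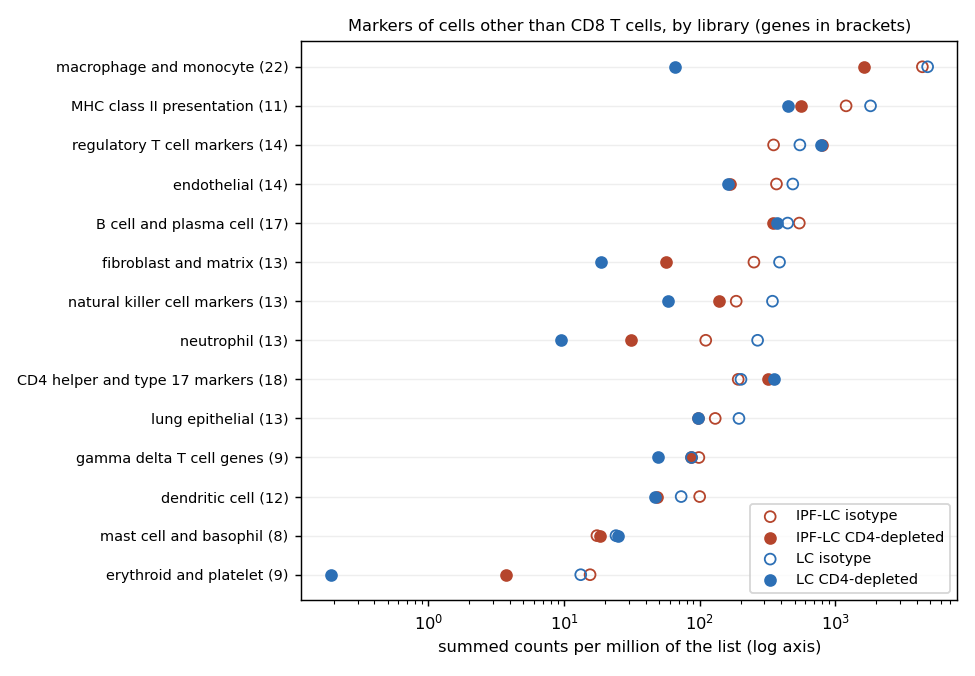
Summed level of 14 marker lists of cells other than CD8+ T cells (rows, number of genes in brackets) in CPM on a log axis; open circles are isotype and filled circles CD4-depleted libraries, red IPF-LC and blue LC, 1 library each. Macrophage and monocyte genes summed to 66.1 CPM in depleted LC against 1616 to 4792 CPM in the other libraries.

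Over the 8433 genes, the IPF-LC depletion ratio exceeded the LC ratio at least 2-fold in 679 genes (8.05%) and lay at least 2-fold below it in 534 (6.33%), with a median difference of -0.02 on the log2 scale. Opposite signs of any size were common: 1531 genes (18.2%) were higher in IPF-LC but lower in LC, and 2032 (24.1%) the reverse. Asking for 2-fold in each model left 24 (0.285%) and 7 (0.083%). At any size, the ratios had opposite signs in 376 of the 679 genes and 432 of the 534, so the genes 2-fold apart in each direction were a small subset of those with opposite ratios. By the 2-fold limit in each model, of the 679 genes 171 were 2-fold higher in IPF-LC only, 158 were 2-fold lower in LC only, 150 were 2-fold lower in both but more so in LC, 172 were within 2-fold in both, and 4 were higher in both. Of the 534, 188 were 2-fold lower in IPF-LC only, 72 were 2-fold higher in LC only and 262 were within 2-fold in both. The share past 2-fold was 32.7% among genes at 10 to 20 CPM, 17.4% at 20 to 50, 7.82% at 50 to 100 and 3.85% above 100, and no opposite gene had a mean above 100 CPM.

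**Figure D2:**
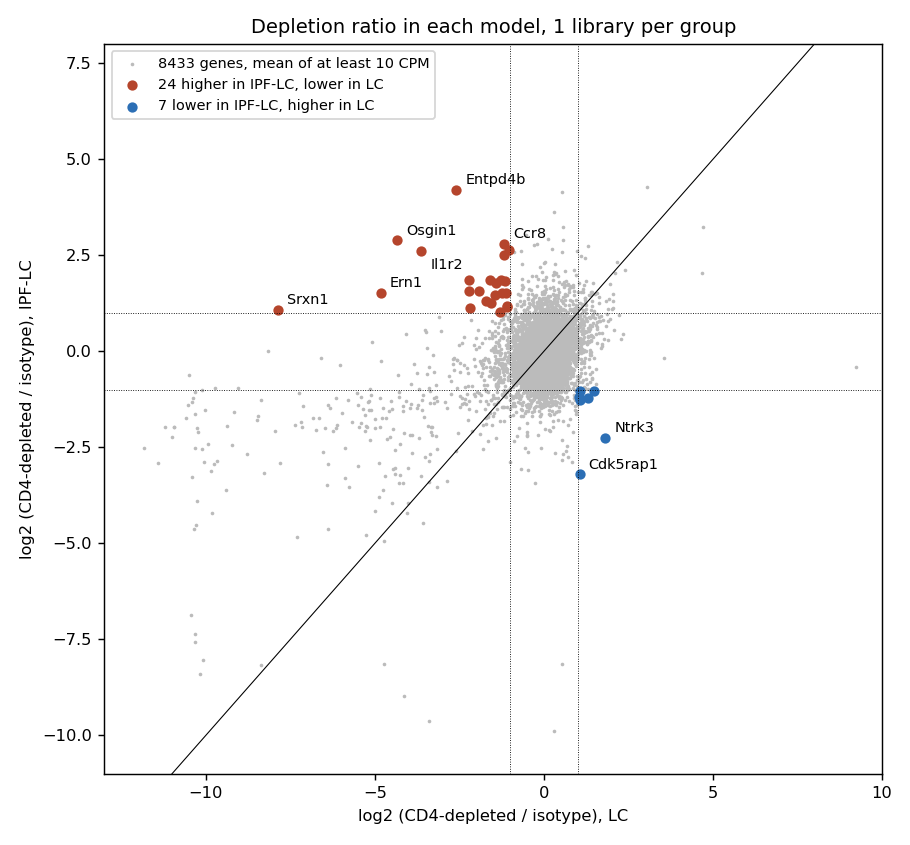
Each point is 1 of 8433 genes, with its log2 ratio of CD4-depleted to isotype in LC on the horizontal axis and in IPF-LC on the vertical axis; dotted lines mark 2-fold and the solid line equal ratios. The 24 red genes lie upper left and the 7 blue genes lower right. A cloud of genes with large negative LC ratios lies to the left. Some of these had a positive IPF-LC ratio under 2-fold, such as Csf3r (-5.09 in LC and 0.25 in IPF-LC).

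The 24 genes had a common arrangement of levels. LC lay above IPF-LC with the isotype antibody in 23 of 24, by a median of 1.92 on the log2 scale, and below IPF-LC after depletion in 24 of 24, by a median of 1.53. The exception, Gm47283, was at 59.6 CPM in isotype IPF-LC and 50.1 CPM in isotype LC. For the 7 reverse genes LC lay below IPF-LC with isotype in 7 of 7, by a median of 1.44, and above it after depletion in 7 of 7, by 1.15. These orders follow in large part from how the genes were chosen and are given as a description. None of the 31 was on a list of other cell types, but only 86 of the 8433 genes were on such lists or were receptor or immunoglobulin segments. Nothing is read from this absence. Of the 679 genes, 141 tracked the macrophage sum across the 4 libraries (a correlation of at least 0.9, as a description), and so did 7 of the 15 highest. Nothing is read from the tracking of the 7 or the 534. That sum was lower with depletion in both models and more so in LC, so the rules that chose these genes nearly fix that they do not track it. The rule for the 24 does not fix this. Of the 24, 0 reached 0.9, but their correlations ran from -0.03 (Rgs16) to 0.811 (Ccl4), 0.889 (Ern1) and 0.895 (Srxn1), the last 2 just under the limit.

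**Figure D3:**
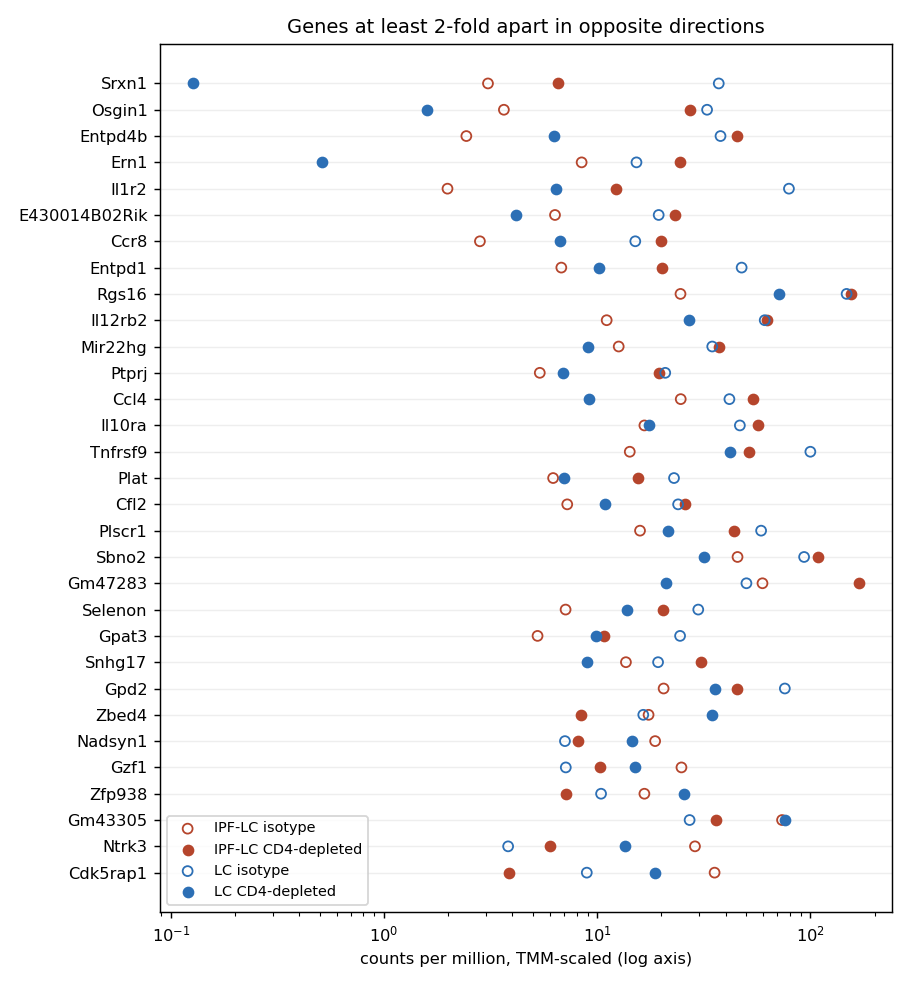
Levels of the 31 genes with opposite 2-fold ratios in the 4 libraries, in CPM on a log axis; open circles are isotype and filled circles CD4-depleted, red IPF-LC and blue LC. In the upper 24 genes the filled red and open blue circles lie to the right, as for Rgs16 at 154 and 148 CPM; in the lower 7 they lie to the left.

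Sequence upstream of 3 of these genes is shown because they carry matches to motifs of factors that respond to T cell activation and to oxidants. The windows are RefSeq promoters of build GRCm38.p6, 250 bases before to 50 after the start, all on the + strand: Srxn1 at chr2:152105274-152105573, Osgin1 at chr8:119436897-119437196 and Tnfrsf9 at chr4:150919905-150920204. Capitals mark TGANTCA, the site bound by AP-1 (Fos and Jun) proteins, or TGACNNNGC, the core of the antioxidant response element, on either strand.
Srxn1: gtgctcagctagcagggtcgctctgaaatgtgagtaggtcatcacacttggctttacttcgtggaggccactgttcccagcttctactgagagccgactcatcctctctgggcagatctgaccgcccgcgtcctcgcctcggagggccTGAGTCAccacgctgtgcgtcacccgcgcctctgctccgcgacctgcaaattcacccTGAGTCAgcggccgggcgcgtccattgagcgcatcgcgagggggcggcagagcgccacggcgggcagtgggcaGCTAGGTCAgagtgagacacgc
Osgin1: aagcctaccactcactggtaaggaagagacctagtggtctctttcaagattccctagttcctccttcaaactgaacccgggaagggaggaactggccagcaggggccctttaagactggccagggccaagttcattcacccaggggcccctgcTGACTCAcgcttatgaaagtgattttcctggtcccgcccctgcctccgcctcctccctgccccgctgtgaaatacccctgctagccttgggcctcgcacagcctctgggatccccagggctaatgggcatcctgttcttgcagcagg
Tnfrsf9: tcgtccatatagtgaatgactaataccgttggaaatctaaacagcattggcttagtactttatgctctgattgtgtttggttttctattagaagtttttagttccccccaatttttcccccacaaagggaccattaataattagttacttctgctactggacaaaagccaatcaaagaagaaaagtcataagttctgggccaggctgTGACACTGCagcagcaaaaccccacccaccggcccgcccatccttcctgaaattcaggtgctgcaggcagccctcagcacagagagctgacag
Srxn1 held 2 matches to TGANTCA and 1 to TGACNNNGC, Osgin1 1 match to the first, and Tnfrsf9 1 match to the second. The 2 motifs can overlap, since TGACTCA followed by GC holds both. A promoter was found for 19 of the 24 genes. TGANTCA was in 2 of the 19, against 7.93% of all 27025 promoters and 4.49% of the 6745 promoters of genes at 10 CPM or more. TGACNNNGC was in 6 of the 19 (Ern1, Il12rb2, Sbno2, Snhg17, Srxn1 and Tnfrsf9), against 12.5% and 15.1%. The cyclic AMP response element TGACGTCA was in 0 of the 19, against 1.88% and 3.65%. None of the 3 motifs was in the 6 promoters found for the reverse genes. A match is a stretch of letters and not a measured binding site.

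Among genes of antigen-experienced CD8+ T cells, Tnfrsf9, which encodes the costimulatory receptor 4-1BB, stood at 14.2 CPM in isotype IPF-LC, 51.3 in depleted IPF-LC, 99.9 in isotype LC and 41.7 in depleted LC. The 2 models were thus 7.02-fold apart with the isotype antibody and 1.23-fold apart after depletion. Its log2 depletion ratio was 1.85 in IPF-LC and -1.26 in LC, a difference of 3.11 (95% counting interval 2.86 to 3.36). The intervals cover counting error only, since they were computed from the counts of 1 library per group. The reads carried no molecular identifiers, so amplified copies were counted too and the intervals may be too narrow. Entpd1 encodes CD39, an enzyme that breaks down extracellular ATP and marks exhausted CD8+ T cells and regulatory T cells. Its levels were 6.78, 20.1, 47.6 and 10.1 CPM in the same order of libraries, a difference of 3.79 (3.39 to 4.19). Isotype LC was the high library for Entpd1, and the other 3 lay between 6.78 and 20.1 CPM. Rgs16, an inhibitor of G protein signalling that is induced in activated T cells, was the most abundant of the 24 at 24.6, 154, 148 and 71.6 CPM, a difference of 3.69 (3.51 to 3.88). Here isotype IPF-LC was the low library.

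The 24 also held 3 cytokine receptors, a chemokine receptor and a chemokine. The 23 listed cytokine receptors had a median difference of 0.09, with 6 at 1 or more and 0 at -1 or less. The 21 chemokine receptors and homing genes had a median of 0.37, with 5 at 1 or more and 3 at -1 or less. Of all 12231 genes at 1 CPM or more, 17.1% were at 1 or more and 11.4% at -1 or less. Il12rb2, the signalling chain of the interleukin 12 receptor, stood at 11.1 CPM in isotype IPF-LC, 62.6 in depleted IPF-LC, 61.0 in isotype LC and 26.8 in depleted LC, a difference of 3.68 (3.40 to 3.97). Its partner chain Il12rb1, outside the 24, was at 9.85, 16.3, 15.7 and 8.10 CPM, a difference of 1.68 (1.26 to 2.10). For both chains depleted IPF-LC and isotype LC were the 2 higher libraries, while the lowest was isotype IPF-LC for Il12rb2 and depleted LC for Il12rb1. Il10ra, the ligand-binding chain of the interleukin 10 receptor, was at 16.6, 57, 46.7 and 17.5 CPM, with ratios of 1.78 in IPF-LC and -1.41 in LC. Ccr8, a chemokine receptor of tissue T cells and of regulatory T cells in tumours, was at 2.82, 19.8, 15.1 and 6.70 CPM, a difference of 3.97 (3.41 to 4.53). Il1r2, a decoy receptor for interleukin 1 found on neutrophils, macrophages and activated regulatory T cells, was at 1.98, 12.3, 79.3 and 6.38 CPM. Isotype LC was far above the other 3 libraries for Il1r2, and the difference was 6.24 (5.62 to 6.85). Ccl4, a chemokine that activated CD8+ T cells and macrophages secrete, was at 24.6, 53.8, 41.7 and 9.12 CPM, a difference of 3.31 (3.00 to 3.63), with depleted LC the low library.

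Tnfrsf9, Entpd1, Ccr8 and Il1r2 are also expressed by regulatory T cells, so the markers of these cells are given beside them. Foxp3, their defining transcription factor, was at 1.47 CPM in isotype IPF-LC, 29.3 in depleted IPF-LC, 3.88 in isotype LC and 32.5 in depleted LC. It was therefore higher in both depleted libraries, with ratios of 4.28 and 3.06 and a difference of 1.23 (0.52 to 1.94). Ctla4 had a like pattern, at 39.3, 219, 92.1 and 196 CPM. Ikzf4 was higher in depleted IPF-LC only, at 6.01, 30.1, 4.46 and 4.53 CPM. Tnfrsf4, the receptor OX40, was low only in isotype IPF-LC, at 2.24, 28.1, 26.3 and 32.5 CPM. The list's sum was 350.5 (isotype) and 801 (depleted) CPM in IPF-LC and 548 and 788 CPM in LC, and 7 of its 14 measured members had a difference of at least 1 and 2 of at most -1. The part of these cells in the opposite genes was not tested.

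Of the 24, Srxn1 and Osgin1 had the widest differences. Srxn1, which encodes sulfiredoxin, had 48, 102, 574 and 2 counts, or 3.07, 6.54, 37.1 and 0.128 CPM, so its difference of 8.95 (7.09 to 10.8) rested on 2 counts in depleted LC. Its correlation with the macrophage sum was 0.895, just under the limit of 0.9. Osgin1, an oxidative stress gene, was at 3.65, 27.1, 32.7 and 1.59 CPM, with depleted LC low and a difference of 7.22 (6.52 to 7.92). Ern1 encodes IRE1 alpha, the sensor of the unfolded protein response that splices Xbp1 mRNA. It had 132, 380, 236 and 8 counts, a difference of 6.34 (5.32 to 7.37), and its correlation with the macrophage sum was 0.889. Some other members of that response had ratios of opposite sign without reaching 2-fold in both models. Xbp1 was at 159, 352, 254 and 235 CPM, Atf6, another sensor, at 17.3, 34.8, 54.5 and 36.9 CPM (difference 1.57), and Ddit3, the factor CHOP, at 12.3, 32.4, 28.1 and 20.3 CPM (1.87). Of the list's 21 measured genes, 8 were higher in IPF-LC but lower in LC and 4 the reverse, against 2402 and 2689 of all 12231 genes at 1 CPM or more. A difference of at least 1 was found in 5 of the 21 and of at most -1 in 0, against 17.1% and 11.4% of the 12231. Of the 21, 20 reached 10 CPM, and of the 8433 genes at that level 8.05% and 6.33% had such differences. The list's median was 0.10, near the 0.02 of the 12231 genes.

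The remaining genes of the 24 had differences between 2.23 and 6.79. They included the protein tyrosine phosphatase Ptprj (3.44), the tissue plasminogen activator Plat (3.02), the actin-severing protein Cfl2 (2.97), the phospholipid scramblase Plscr1 (2.92), the transcriptional regulator Sbno2 (2.82), the selenoprotein Selenon (2.62) and the lipid and glycerol phosphate enzymes Gpat3 (2.33) and Gpd2 (2.23). Sbno2, the most abundant of these, stood at 45.5, 109, 93.4 and 31.6 CPM. Mir22hg (3.49), Snhg17 (2.27), E430014B02Rik (4.08) and Gm47283 (2.75) are host transcripts, noncoding or predicted gene models. Entpd4b, with a difference of 6.79, is uncertain. It and Entpd4, a close copy, had the same rounded count in 2 libraries, 706 in depleted IPF-LC and 585 in isotype LC, while Entpd4b had 38 and 98 counts in the other 2 libraries and Entpd4 920 and 1156. The sum of both genes was 61.3, 90.6, 75.7 and 80.0 CPM, with a difference of 0.48 (0.32 to 0.65) and ratios of 0.56 and 0.08, both positive. Without Entpd4b the count of genes higher in IPF-LC but lower in LC is 1 smaller.

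Of the 7 genes in the reverse direction, Cdk5rap1, which modifies mitochondrial transfer RNA, had the widest difference. It stood at 35.5 CPM in isotype IPF-LC, 3.85 in depleted IPF-LC, 8.93 in isotype LC and 18.6 in depleted LC, with ratios of -3.19 and 1.05 and a difference of -4.25 (-4.73 to -3.77). Ntrk3, a neurotrophin receptor, was at 28.7, 6.03, 3.82 and 13.5 CPM, a difference of -4.06 (-4.58 to -3.53). For both, isotype IPF-LC was the high library. The others had differences between -2.12 and -2.53: Zbed4, Gzf1 and Zfp938, which encode zinc finger proteins, Nadsyn1, which makes NAD, and the predicted gene Gm43305. Gzf1 was at 24.8, 10.3, 7.12 and 15.1 CPM and Nadsyn1 at 18.7, 8.15, 7.05 and 14.6 CPM, so the levels in depleted IPF-LC and isotype LC were close together. No gene of the 7 belonged to the lists of T cell function, and with only 7 genes nothing is read from that. At the 2-fold limit, the genes just inside were Gpat3, Gm43305 and Rgs16, whose smaller ratios were 1.03, 1.04 and 1.05 in size, and those just outside were Slc35f6, Nemp1 and Nek1, at 1.00, 1.00 and 0.99.

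The other genes of CD8+ T cell activation were read from lists, beside which stand the 12231 genes at 1 CPM or more, of which 17.1% had a difference of at least 1 and 11.4% of at most -1. Of 19 measured inhibitory receptor and exhaustion genes, 11 had a difference of at least 1 and 0 of at most -1, and the median was 1.39. Pdcd1, which encodes PD-1, stood at 33.2 CPM in isotype IPF-LC, 122 in depleted IPF-LC, 136 in isotype LC and 85.6 in depleted LC, a difference of 2.54 (2.37 to 2.72). Its ratio of 1.88 in IPF-LC was more than 2-fold and its ratio of -0.66 in LC was not, which keeps it out of the 24. Lag3 met 2-fold in both models with ratios of 2.04 and -1.07, but at 1.79, 7.44, 10.6 and 5.04 CPM it lay under the level of 10 CPM. Tigit was at 19.1, 55.9, 37.8 and 38.4 CPM and Tox, a transcription factor of exhaustion, at 52.7, 108, 76.7 and 64.1 CPM, so for both the gap between depleted and isotype was in IPF-LC. Havcr2, which encodes TIM-3 and is also expressed by macrophages, was at 11.5, 9.94, 68.1 and 21.5 CPM, high in isotype LC.

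Among 16 cytotoxic effectors and effector cytokines, 6 had a difference of at least 1, 1 of at most -1, and the median was 0.73. Gzmb, which encodes granzyme B, stood at 97.3, 196, 283 and 160 CPM, with ratios of 1.01 in IPF-LC and -0.82 in LC and a difference of 1.83 (1.72 to 1.95). Gzmk, granzyme K, was at 5.69, 34.4, 28.5 and 15.4 CPM (difference 3.47) and Fasl, Fas ligand, at 60.3, 161, 100 and 82.9 CPM (1.69). Isotype IPF-LC was the lowest library for each of these 3 genes. Prf1, perforin, had another pattern at 98.3, 79.7, 171 and 70.3 CPM, lower with depletion in both models, as were Gzma (85.9, 69.9, 108 and 39.5 CPM) and Ifng (27.6, 25.9, 34.5 and 14.1 CPM). Gzma and Ifng tracked the macrophage sum across the 4 libraries. The median of 15 terminal effector genes was 1.15, with 10 at 1 or more and 0 at -1 or less. Klrg1, an inhibitory receptor of short-lived effectors, was at 4.73, 22.8, 11 and 7.02 CPM (2.91), Tbx21, the factor T-bet, at 43.4, 81.9, 71.4 and 39.4 CPM (1.77), and Bhlhe40 at 236, 922, 816 and 688 CPM (2.21). Stat3, which relays interleukin 6, 10 and 21 signals, was among the more abundant such genes at 400, 989, 876 and 531 CPM, with a difference of 2.03 (1.97 to 2.09).

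**Figure D4:**
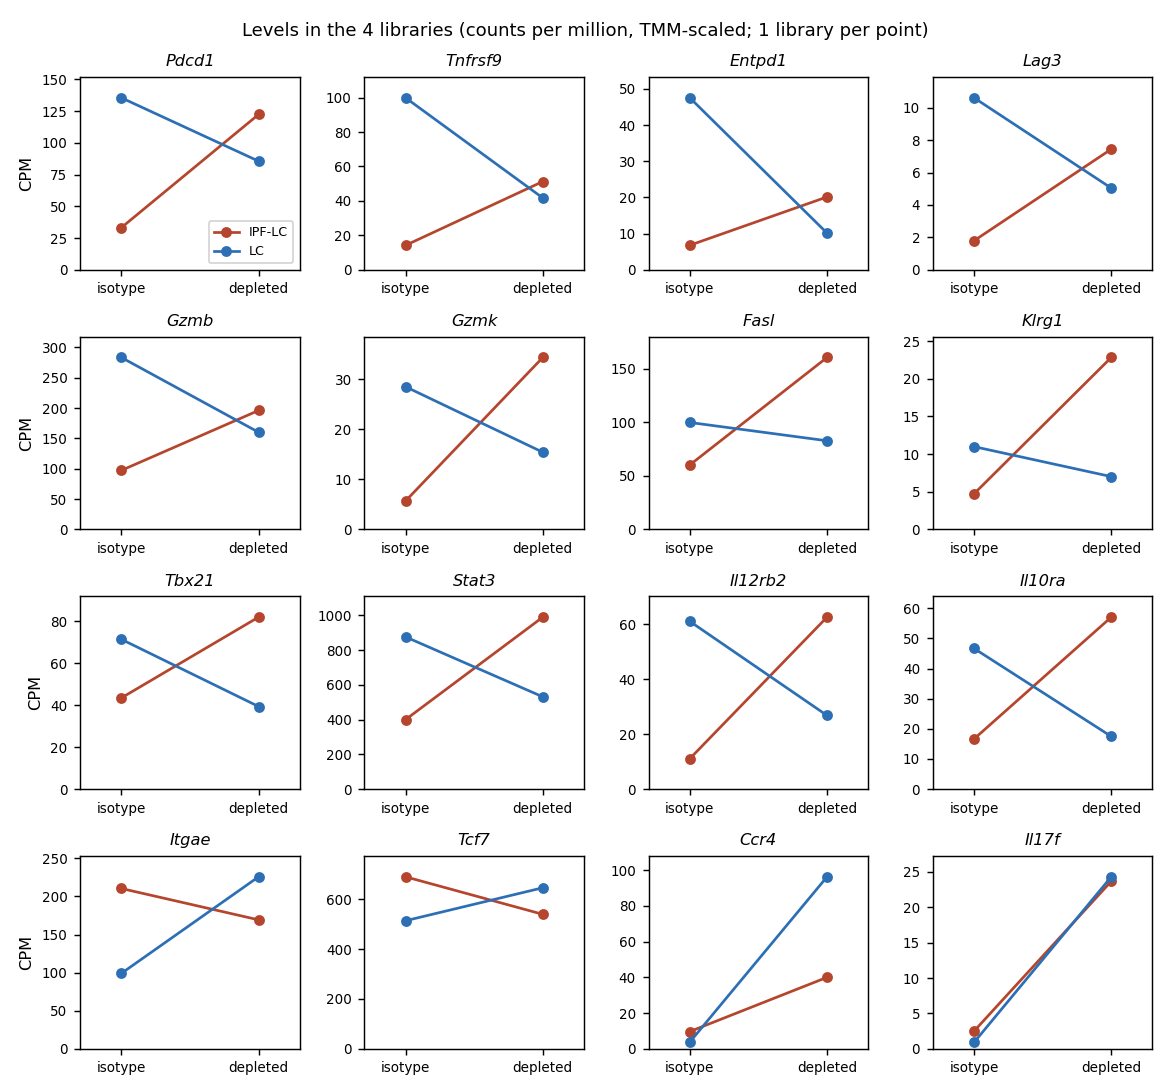
Level of 16 genes in CPM (vertical axes from 0, each gene on its own scale) with isotype and CD4-depleting antibody, joined by model (red IPF-LC, blue LC), 1 library per point. Lines cross for Pdcd1, Gzmb, Tbx21 and Stat3, with IPF-LC going up and LC down, cross the other way for Itgae and Tcf7, and both go up for Il17f.

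Genes of naive and central memory cells showed smaller differences. Of 20, 1 had a difference of at least 1 (Ly6c1, on 3 and 7 counts in the depleted libraries) and 0 of at most -1, with a median of -0.29, and 8 were lower in IPF-LC but higher in LC. Tcf7, the factor TCF-1, was at 690 CPM in isotype IPF-LC, 539 in depleted IPF-LC, 513 in isotype LC and 646 in depleted LC (-0.69), whereas Il7r lay between 915 and 988 CPM in all 4 (-0.14). Cd8a and Cd8b1 themselves had differences of -0.48 and -0.83. Of 16 residency genes, 8 had a difference of at least 1 and 1 of at most -1, with a median of 0.90. Of all 12231 genes at 1 CPM or more, 17.1% and 11.4% did so. The residency median over members at 50 CPM or more was 0.40. Cxcr6, a receptor that holds T cells in tissue, was at 104, 227, 164 and 159 CPM (1.17), while Itgae, the integrin CD103, was at 211, 169, 99.0 and 226 CPM (-1.50), and Itga1 (2.74) tracked the macrophage sum.

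Markers of CD4 helper and type 17 cells had a list median of -1.30, with 1 of 14 at 1 or more and 8 at -1 or less. Of all 12231 genes at 1 CPM or more, 17.1% and 11.4% lay there. Only 6 of the 14 reached 10 CPM and 4 had a 0 count, and the median of members at 50 CPM or more was -0.13. The list's sum was higher with depletion in both models, at 192 and 321 CPM in IPF-LC and 202 and 353 CPM in LC. Il17a had 42 counts in isotype IPF-LC, 208 in depleted IPF-LC, 0 in isotype LC and 147 in depleted LC. Il17f was at 2.50, 23.7, 0.906 and 24.3 CPM, so both interleukin 17 genes were high in the 2 depleted libraries and the difference (-1.47 for Il17f) came from the isotype libraries. Ccr4, a chemokine receptor of helper and regulatory T cells, was at 9.66, 40.0, 3.75 and 96.3 CPM, higher with depletion in both models and more so in LC (-2.62). Proliferation genes had a median of -0.30 over 57, with 5 at 1 or more and 8 at -1 or less. These were 8.77% and 14.0% of the list, against 17.1% and 11.4% of the 12231 genes. Mki67 was at 18.7, 30.9, 33.7 and 92.9 CPM (-0.74), Cenpf at 7.29, 4.17, 11 and 28.2 CPM (-2.16), and Brca1 at 2.11, 20.1, 21.8 and 32.2 CPM (2.67). The list's median ratio was positive in both models, at 0.49 in IPF-LC and 0.78 in LC. Of the 57, 3 were higher in IPF-LC but lower in LC and 9 the reverse, against 2402 and 2689 of 12231 genes.

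**Figure D5:**
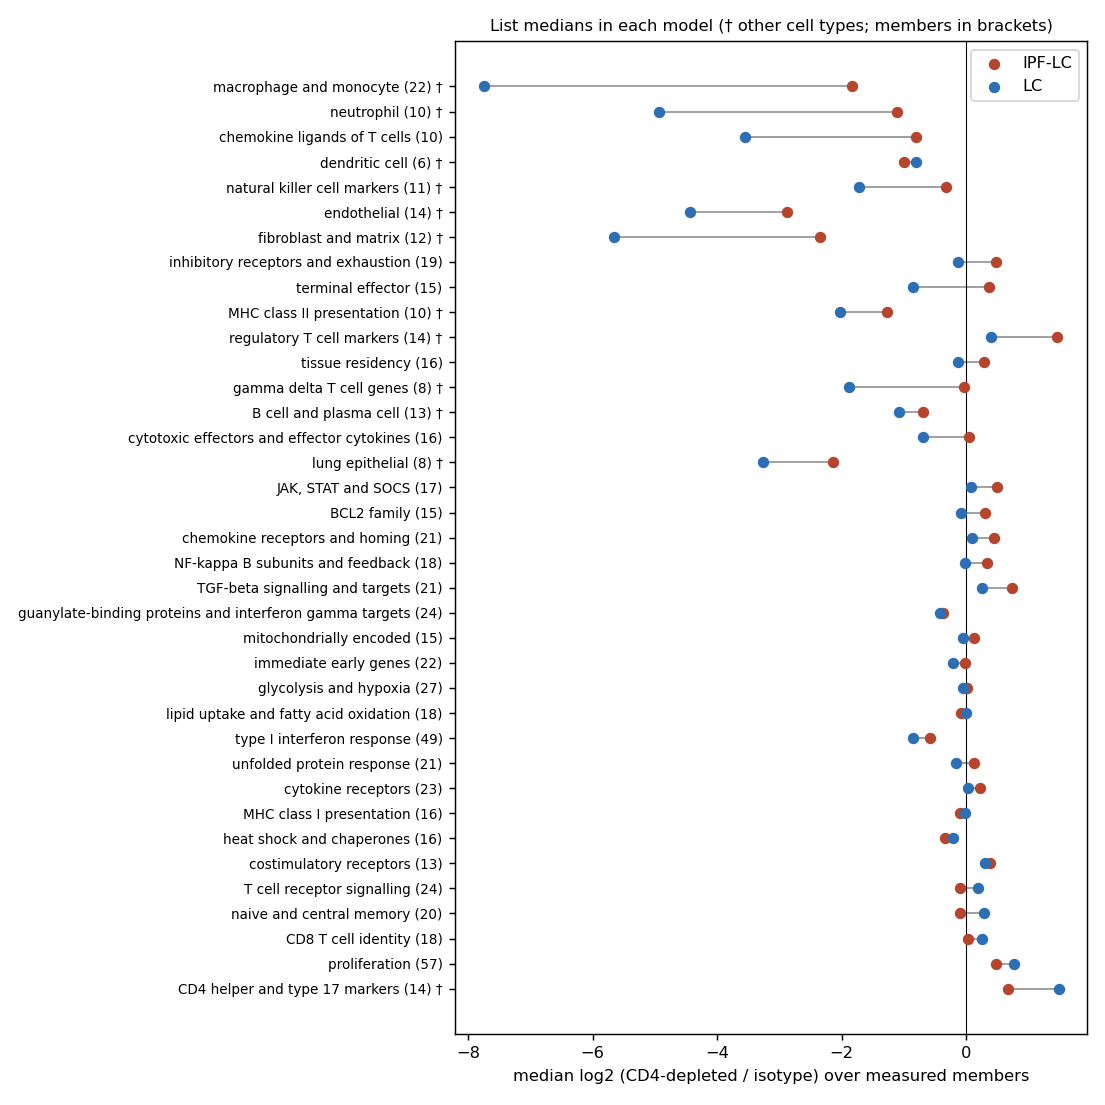
Median log2 ratio of CD4-depleted to isotype over the measured members of 37 lists with at least 6 of them, red for IPF-LC and blue for LC, ordered by the median difference. Macrophage and monocyte genes lie farthest apart (-1.83 and -7.74), and CD4 helper and type 17 markers, at the bottom, have the LC median to the right (0.68 and 1.49).

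Of 39 lists, 10 had a median difference of at least 1 and 1 of at most -1. Of the 10, 7 were among the 14 lists of other cells, led by macrophages and monocytes (4.72, or 4.26 with 0 counts set to the floor of 3) and neutrophils (4.65, or 4.30). The other 3 were among the 24 T cell and process lists: inhibitory receptors (1.39), terminal effector genes (1.15) and chemokine ligands (2.89). Over members at 50 CPM or more these medians were 0.83, 0.996 and 3.36, so the first 2 were then under 1. The chemokine list is shared with macrophages, and its widest members were Ccl9 (25.2, 6.35, 67.7 and 0.447 CPM) and Ccl6 (294, 89.0, 308 and 3.06 CPM), both of which tracked the macrophage sum. Genes of the 15 highest differences included Clec4e, Mpeg1, C5ar1, Mmp19, Tgm2, Il1a, Tnfaip2, Chil3 and Adgre1, all expressed by myeloid cells. Mpeg1 was at 50.9, 26.2, 153 and 0.255 CPM and Chil3 at 229, 61.0, 1507 and 9.06 CPM. These were lower with depletion in both models, or nearly level in IPF-LC (Clec4e, 5.82 and 5.90 CPM), and lowest in depleted LC, where Chil3 still had 142 counts. The part of other cells in the differences of T cell genes was not tested. Without the genes that tracked the macrophage sum, the 679 became 538.

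The 15 lowest differences were mostly genes low in depleted IPF-LC, which is 1 way in which a low difference arises. They held no markers of myeloid cells, which the ranking nearly fixes, since the macrophage sum was lower with depletion more so in LC. Both are given as a description. Ubxn7, a ubiquitin adaptor, stood at 57.9 CPM in isotype IPF-LC, 9.62 in depleted IPF-LC, 31.8 in isotype LC and 49.95 in depleted LC, a difference of -3.24 (-3.53 to -2.94). Rtn4ip1, Gatb, Tmem129, Pacc1, Zfp160, Wdfy2, Klhl42, Prmt2 and Tmie had the same low library, with levels there of 2.05 to 4.94 CPM. Depleted IPF-LC was at least 2-fold below each other library in 55 of the 534 genes, and depleted LC in 154 of the 679. Isotype LC was at least 2-fold above each other library in 141 of the 679. The heat shock genes Hspa1a and Hspa1b, near-identical copies, summed to 99.7, 11.7, 77.9 and 52.2 CPM, a difference of -2.51 (-2.77 to -2.26). Kdr, a receptor of endothelial cells, was at 25.2, 0, 39.6 and 3.76 CPM. Zc3h11a is uncertain: 1 of its 2 entries had 141, 0, 368 and 538 counts, but the sum of both entries was 149, 113, 141 and 137 CPM, a difference of -0.37.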

How the data were processed

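RNA of CD3+CD8+ lung cells was amplified with SMART-Seq v4 and made into NEBNext Ultra II libraries, per the labels' protocols. Build GRCm39 and the tools RSEM 1.3.3, STAR 2.7.11a, MultiQC 1.25.2 and fastp 0.23.4 are listed, with no roles, per the submitters' processing notes; the annotation release is not given in the sources used here. The authors deposited 1 gene table per library with expected counts, not normalised, of which 5.49 to 5.89% were not whole. The deposited TPM values served as an alternative and the deposited FPKM values were not used; per the file headers, the other columns are gene length and effective length.

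Expected counts were rounded (totals 15439173, 16217672, 14946569 and 15767812 for isotype IPF-LC, depleted IPF-LC, isotype LC and depleted LC) and scaled by TMM in edgeR 4.0.16 (factors 1.012, 0.961, 1.034 and 0.994). Log2 ratios used a prior count of 0.5, and 95% counting intervals came from the counts plus 0.5 on the log scale, after a check on simulated data. The simulated counts held counting error only, so that check could not show whether the intervals are wide enough for amplified reads. List values are over members that averaged 1 CPM or more. Of the 12231 genes at that level, 8433 reached 10 CPM, where the shares at 1 or more and -1 or less were 8.05% and 6.33%. Some lists held nearly only such genes, as 20 of 20 naive and central memory, 20 of 23 cytokine receptor and 15 of 16 residency genes. For these lists the shares of the 12231 are not matched in level. The genes and lists were chosen with earlier results of these data known, and the promoter motifs likewise. Named genes were those with opposite 2-fold ratios, the 15 highest and 15 lowest differences by the counting bound nearest 0, up to 4 per list with the largest difference and a set of T cell genes including Pdcd1, Gzmb and Foxp3; receptor segments and unnamed models were passed over among the 15. Alternatives were library totals, DESeq2 1.42.0 size factors, TPM with a pseudocount of 0.05, a prior count of 5, other limits on level and fold, and the removal of other cells' genes.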

Additional observations from a re-analysis of the deposited data

Results flagged for a closer look

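The depletion ratios of the 2 models pointed in opposite directions, with at least 2-fold in each, in 24 genes that were higher in IPF-LC but lower in LC and in 7 that were lower in IPF-LC but higher in LC. With 1 library per group this difference between the models was not tested. On the log2 scale, the IPF-LC ratio minus the LC ratio of the first set ran, from the widest, as Srxn1 8.95, Osgin1 7.22, Entpd4b 6.79, Ern1 6.34, Il1r2 6.24, E430014B02Rik 4.08, Ccr8 3.97, Entpd1 3.79, then Rgs16 3.69, Il12rb2 3.68, Mir22hg 3.49, Ptprj 3.44, Ccl4 3.31, Il10ra 3.19, Tnfrsf9 3.11, Plat 3.02, and last Cfl2 2.97, Plscr1 2.92, Sbno2 2.82, Gm47283 2.75, Selenon 2.62, Gpat3 2.33, Snhg17 2.27, Gpd2 2.23. For the second set it was Zbed4 -2.12, Nadsyn1 -2.24, Gzf1 -2.35, Zfp938 -2.51, Gm43305 -2.53, Ntrk3 -4.06, Cdk5rap1 -4.25. Of the 31, 24 had whole expected counts in all 4 libraries (within 0.05). The 7 others, for which some reads may have been divided between genes, were Entpd4b, Gm43305, Gm47283, Gpat3, Gpd2, Il12rb2 and Rgs16.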

How the results depend on the processing

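No paired analysis was possible because each group held 1 library, and for the same reason no library could be left out. The counts of genes with a difference of 2-fold higher and lower, and of opposite genes in each direction (679, 534, 24 and 7), stayed within 1.5 times under library totals, DESeq2 size factors, TPM, a prior count of 5, and, both added after seeing the data, 0 counts at the floor of 3 and genes with whole expected counts only (567, 427, 18 and 6). They were 136, 105, 4 and 1 at a mean of at least 50 CPM, 2094, 1394, 265 and 96 at 1 CPM, and 5546, 3713, 807 and 383 with no filter. At 1.5-fold they were 1430, 1386, 93 and 89, at 3-fold 328, 129, 5 and 1, and with the whole counting interval past 2-fold 452, 243, 14 and 1. Under TPM, 40 of 201 named genes left their counting interval, and Mmp8 changed sign there and under a prior count of 5. Removing genes that tracked the macrophage sum left 538 of the 679. It is no check of the 534 or the 7, since the rules for those genes nearly fix that they do not track it. It left the 24 as they were, with Srxn1 (0.895) and Ern1 (0.889) just under the limit of 0.9. At 50 CPM, 11 of 33 list medians moved by more than their counting interval, and 6 of 33 list medians changed sign, those of costimulatory receptors, cytokine receptors, the type I interferon response, lipid uptake, the unfolded protein response and B cells. The depth of 14946569 to 16217672 counts limits the values near 0, such as the 2 counts of Srxn1 in depleted LC, and variation between mice was not measured.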

Other observations

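Because Srxn1 and Osgin1 stood at the head of the opposite genes, 20 genes of the antioxidant response were looked up after these values had been seen, so the list supports nothing by itself. Of the 16 with a mean of at least 10 CPM, 5 had a difference of at least 1 and 0 of at most -1, with a median of 0.66, against 8.05 and 6.33% of all 8433 genes. The 5 include Srxn1 and Osgin1 themselves. Hmox1, which encodes heme oxygenase and is abundant in macrophages, was at 12.8 CPM in isotype IPF-LC, 11.4 in depleted IPF-LC, 171 in isotype LC and 1.72 in depleted LC. Slc7a11, the cystine transporter, was at 1.22, 2.18, 27.8 and 0 CPM, under the level of 10 CPM on average. Both were high in isotype LC only. Sqstm1, the autophagy receptor p62, was at 567, 899, 816 and 624 CPM (1.05). Gsr, glutathione reductase, was at 60.4, 58.8, 167 and 75.0 CPM (1.11). Gclc and Gclm, which make glutathione, were higher with depletion in both models, with differences of -0.07 and -0.69.

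The 8 mitochondrially encoded genes with opposite signs were all higher in IPF-LC but lower in LC, out of 15 measured, with a list median of 0.27; of the 12231 genes at 1 CPM or more, 2402 (19.6%) lay in this direction and 2689 in the other. Among chemokine receptors, Ccr2 was low in isotype IPF-LC alone (15.5, 60.2, 76.3 and 102 CPM). Of 49 type I interferon response genes, 11 (22.4%) had a difference of at least 1 and 1 (2.04%) of at most -1, against 17.1% and 11.4% of the 12231. The median difference was 0.12 (0.18 with 0 counts at the floor of 3), and the list's median ratio was negative in both models (-0.58 in IPF-LC and -0.85 in LC). The interferon genes Ifit1 (1.42), Ifit3 (1.63) and Rsad2 (1.84) tracked the macrophage sum, while Isg20 (1.47), with a correlation of 0.899, was just under the limit. Tracking was not counted over the whole list.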
